A study of Mus musculus with 12 samples.

Results

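Fos, Fosb, Fosl1, Fosl2, Jun, Junb, Jund, Egr1, Atf3 and Ier3, which are 10 immediate early and AP-1-related genes, were followed by name in the raw counts of cultured mouse fibroblasts. They are 10 of 33246 genes listed, and all 10 were among the 14542 genes that passed the filter on low counts. Primary fibroblasts isolated from the ears of 1-month-old C57BL/6 mice of both sexes were used at passage 2, and 500000 cells were placed on an RGD-coupled alginate gel for 48 h before polyA RNA was sequenced. The study asked how stress relaxation of a substrate, apart from its stiffness, acts on such cells. Each of 4 groups had 3 samples. The 2-kPa and 20-kPa elastic gels were crosslinked covalently and hold an applied stress, whereas the 2-kPa and 20-kPa viscoelastic gels were crosslinked by calcium ions and relax it slowly. All groups share the alginate, the adhesion peptide, the medium with serum and the single collection time, and no group carries a drug or a genetic change. The crosslinker differs with the gel type, and by the paper's methods stiffer gels of both types were made with more of it, which is calcium for viscoelastic gels. Relaxation and stiffness therefore cannot be told apart from the crosslinker and its amount. Viscoelastic and stiffness effects below name only the gels compared. Each gene is compared between gels only, at 1 time, in cells that had already been expanded in culture.

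Immediate early genes are transcribed within minutes of a stimulus such as serum, growth factors or strain, without new protein synthesis, and their mRNAs are short-lived. FOS proteins pair with JUN proteins through leucine zippers to form AP-1, which binds DNA at many genes of adhesion, matrix turnover and proliferation in fibroblasts. EGR1 is a zinc finger factor induced through ERK and SRF, ATF3 is a stress-induced bZIP factor that can pair with JUN proteins, and IER3 is a short-lived protein that acts on ERK signalling and survival.

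Between 36626221 and 43612804 counts were assigned per library, so counting error was small for most of these genes. Fos had 4226 to 12663 counts and Egr1 10041 to 28940, whereas Fosl1 had 99 to 249 and Atf3 49 to 175. Each library was scaled by the trimmed mean of M-values (TMM), and levels are in CPM, the count relative to that scaled library size. Of the markers that check the label, the 9 fibroblast genes summed to 23722 to 29260 CPM in every library. Chondrocyte markers were also present, at 3916 to 5406 CPM in sum, with Col2a1 at 2396 to 3471 CPM and Acan at 854 to 1611 CPM, while Matn1 had at most 0.187 CPM. Markers of keratinocytes summed to 2.90 to 4.84 CPM, of leukocytes to 5.17 to 9.01 CPM, of endothelium to 1.98 to 3.51 CPM, of skeletal muscle to 4.41 to 10.6 CPM, and of Schwann cells and melanocytes to 3.26 to 5.38 CPM. In bulk RNA, fewer cells of a type and less RNA per cell cannot be told apart. The labels number the replicates without saying whether these are separate cultures or animals, and the paper calls them biological replicates. The p-values therefore measure the spread between these samples, which may be that of cultures rather than of animals.

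On 20-kPa gels Egr1 was 1.71-fold higher when the gel was viscoelastic, and Fos was 1.53-fold higher, the latter by a call that rested on 2 libraries. Fosl1 and Atf3 were lower on the same gel, at 0.596 and 0.609 of their elastic level. When single libraries or settings were changed, the call of Fosl1 was kept in 19 of 19 alternatives and that of Atf3 in 8 of 19. The values of Fosl1 are uncertain, since much of its exon is shared with a gene on the opposite strand. Fosl2 rose slightly with stiffness on elastic gels and with viscoelasticity on soft gels, by calls kept in 9 of 19 and 12 of 19 alternatives, while 20-kPa viscoelastic gels had about the level of 2-kPa elastic ones. Fosb, Jun, Junb, Jund and Ier3 passed the test in none of the 4 comparisons, the interaction or the mean of both stiffnesses.

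To set genes side by side, levels were divided by exon length, merged over all GENCODE transcripts of a gene (1131 bases for Ier3, 4484 for Egr1). Where the expressed mRNA is shorter than this, its level is understated, so the order depends on this choice. On this measure Ier3 had the highest mean level over the 12 samples at 108 CPM per kb. Egr1 followed at 87.6, Fos at 79.2 and Junb at 65.0 CPM per kb. Jun and Fosl2 stood at 41.1 and 40.9 CPM per kb, closer to each other than the replicate spread of Jun, and Egr1 and Fos were also closer than the replicate spread of either on 20-kPa gels. Jund was at 19.5 CPM per kb. Fosb, Fosl1 and Atf3 were scarce, at 2.39, 1.65 and 1.03 CPM per kb.

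**Figure D1:**
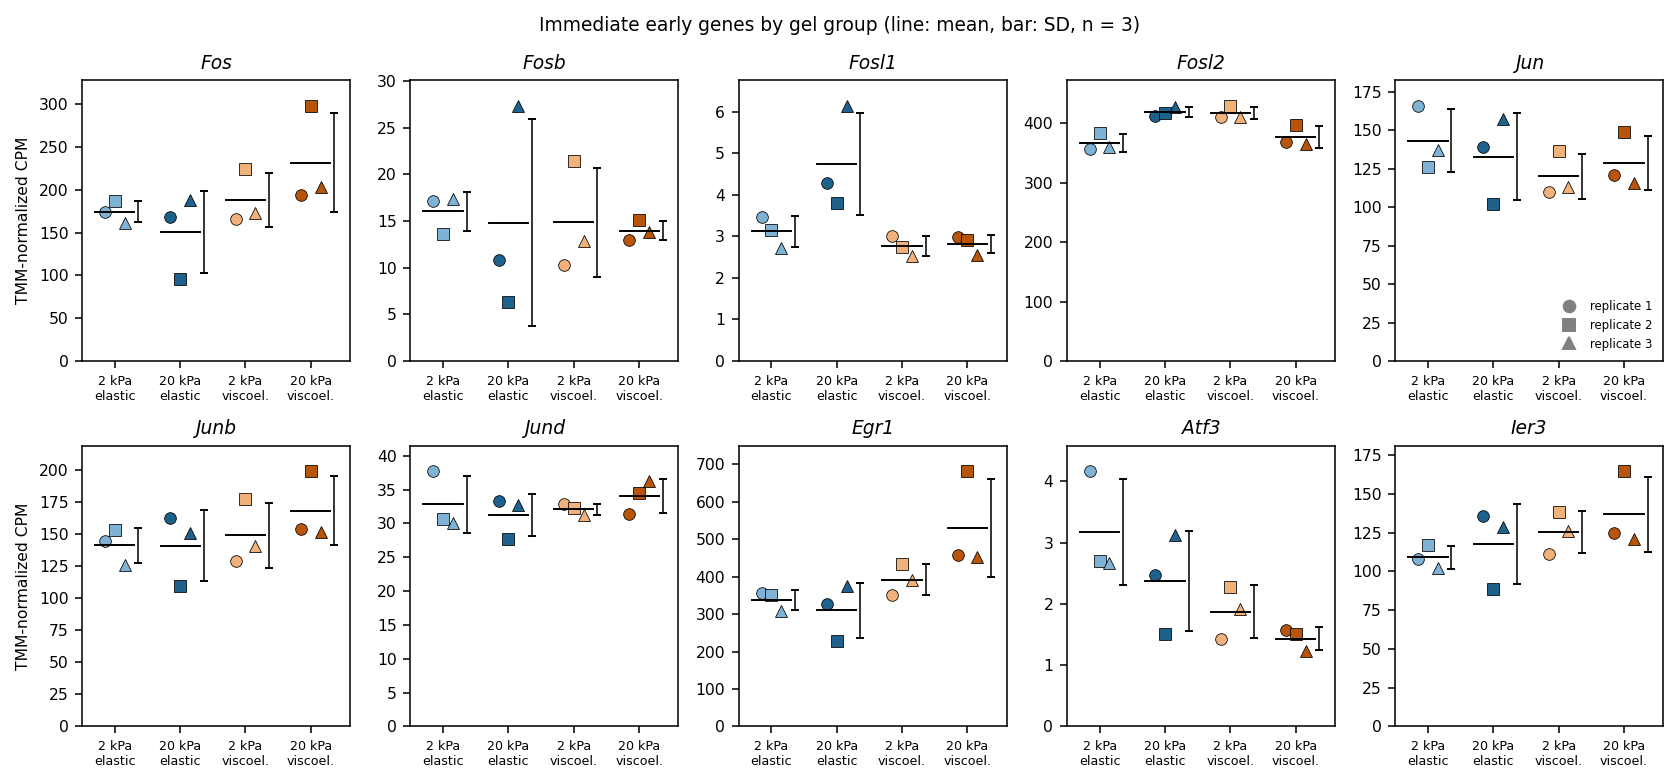
Level of each of the 10 genes in TMM-normalized CPM (vertical axes, from 0) in the 4 gel groups, with 1 point per sample, a line at the mean and a bar for the SD (n = 3). Egr1 is highest in the 3 samples of 20-kPa viscoelastic gels (452 to 681 CPM), Fosl1 in the 3 of 20-kPa elastic gels (3.81 to 6.14 CPM), and Fosl2 stays within 358 to 430 CPM.

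Most of these genes varied far more between replicates of a group than other genes did. The biological coefficient of variation, edgeR's estimate of the spread beyond counting, was 7.50% for all genes together and higher for 9 of the 10. It reached 31.1% for Fosb, 17.4% for Fos and 14.3% for Egr1. Among the 861 genes of like abundance to Fos, 99.8% had a lower value, and for Egr1, Jun, Junb and Ier3 the share was 97.8% to 98.7%. Fosl2 was the exception at 5.49%, below which lay 8.95% of the 313 genes of its abundance.

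The variation was shared between genes. In replicate 2 of the 20-kPa elastic gels all 10 genes lay below their group mean, with a median deviation of -0.37 on the log2 scale, and in replicate 3 all 10 lay above it, with a median of 0.28. In replicate 2 of the 20-kPa viscoelastic gels all 10 were again above the mean (median 0.17), and in replicate 2 of the 2-kPa viscoelastic gels 9 of 10 were. Over all 14542 genes the median deviation of these 4 libraries was between -0.01 and 0.01, which the scaling keeps small in every library by design. Other immediate early genes deviated likewise. Of 42 tested, 40 lay below their mean in the low 20-kPa elastic library and 34 above it in the high 20-kPa viscoelastic one, beside 7270 and 6472 of 14542 genes. Of the 14 AP-1 target genes, all 14 lay below the mean in that elastic library (median -0.15) and 9 also in replicate 1 (median -0.15), whereas 13 lay above it in replicate 3 (median 0.36).

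Other measures of the libraries moved in part with this variation. Mitochondrially encoded genes took 2.22%, 1.77% and 2.48% of counts in replicates 1, 2 and 3 of the 20-kPa elastic gels. The shares were 1.87%, 2.97% and 2.15% on 2-kPa viscoelastic gels and 2.16%, 3.34% and 2.68% on 20-kPa viscoelastic gels. In these 3 groups the order of the replicates was that of Fos, and on 2-kPa elastic gels, at 2.32%, 2.11% and 2.38%, it was the reverse. Fibroblast markers moved with it in part, as all 9 lay below their mean in the low 20-kPa elastic library and 8 of 9 above it in replicate 2 of both viscoelastic groups, but 8 of 9 lay below it in 20-kPa elastic replicate 3, where the members were high. Heat shock chaperones summed to 2030 to 2133 CPM on 20-kPa elastic gels and to 2052 to 2109 CPM on 20-kPa viscoelastic gels, with replicate 2 lowest in both. Chondrocyte markers summed to 3916, 3966 and 3953 CPM on 20-kPa elastic gels and to 5398, 4219 and 4847 CPM on 20-kPa viscoelastic gels. The part of the mitochondrial share, fibroblast markers or chondrocyte markers in the results was not tested.

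**Figure D2:**
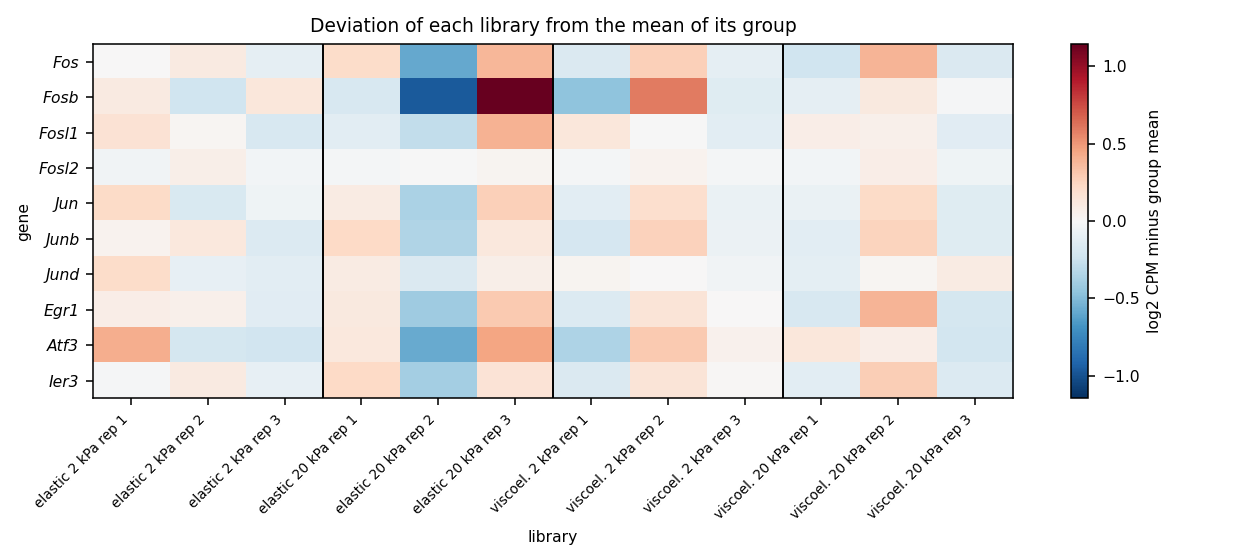
Deviation of log2 CPM from the group mean (colour, red above and blue below) for each gene (rows) in each of the 12 libraries (columns, black lines between groups). Replicate 2 of the 20-kPa elastic gels is blue in all 10 rows, replicate 3 of that group and replicate 2 of the 20-kPa viscoelastic gels are red in all 10, and the row of Fosl2 is nearly white.

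Fos, Egr1, Junb and Ier3 followed each other most closely. Over the 12 deviations from group means, the 6 pairs among them had Pearson's r of 0.905 to 0.966, given as a description since the points share libraries. With Jun included, 10 pairs had an r of 0.778 to 0.966. Fosl2, whose deviations were small, had an r of 0.60 with Fos, 0.14 with Atf3 and -0.18 with Jund.

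Windows before the RefSeq start were read for 8 of the 10 genes. Those of Fos, Jun, Junb and Ier3 are shown because these genes varied together between replicates. Of those not shown, the Jund window ends at 70697738, short of the GENCODE start at 70698949. The windows of Fosl2 and Atf3 lie inside the GENCODE gene. Each runs 5′ to 3′ over the 250 bases before the RefSeq start in build GRCm38.p6. Fos is at chr12:85473640-85473889 (plus strand), Jun at chr4:95052223-95052472 (minus strand), Junb at chr8:84978749-84978998 (minus strand) and Ier3 at chr17:35821463-35821712 (plus strand, its last bases inside the first exon of the GENCODE model). Capitals mark TGACG, the core of the cyclic AMP response element, and CCAAT.
Fos: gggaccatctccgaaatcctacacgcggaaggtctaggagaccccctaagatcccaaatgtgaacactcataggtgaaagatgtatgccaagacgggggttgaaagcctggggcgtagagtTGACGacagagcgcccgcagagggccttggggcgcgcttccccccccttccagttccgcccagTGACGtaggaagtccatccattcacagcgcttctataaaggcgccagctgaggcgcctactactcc
Jun: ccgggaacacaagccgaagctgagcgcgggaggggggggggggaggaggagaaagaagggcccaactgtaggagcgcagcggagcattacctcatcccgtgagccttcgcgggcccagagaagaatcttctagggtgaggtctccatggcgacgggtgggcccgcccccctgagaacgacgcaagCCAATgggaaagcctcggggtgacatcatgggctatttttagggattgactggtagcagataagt
Junb: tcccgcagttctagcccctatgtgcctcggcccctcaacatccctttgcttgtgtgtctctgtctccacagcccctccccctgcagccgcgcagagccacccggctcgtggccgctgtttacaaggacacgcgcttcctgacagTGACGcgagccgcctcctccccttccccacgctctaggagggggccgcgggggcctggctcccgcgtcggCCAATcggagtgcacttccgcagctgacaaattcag
Ier3: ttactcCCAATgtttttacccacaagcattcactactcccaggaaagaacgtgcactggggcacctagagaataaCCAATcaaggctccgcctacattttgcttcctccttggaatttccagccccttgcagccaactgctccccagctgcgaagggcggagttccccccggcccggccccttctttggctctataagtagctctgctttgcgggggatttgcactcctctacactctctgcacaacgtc
With positions counted back from the start, TGACG begins at -129 and -66 in Fos and at -106 in Junb, and Jun and Ier3 do not hold it. The windows of Fosb and Atf3, which are not shown, hold it as well, so 4 of the 8 windows do. Of 32851 windows of this length, 17.8% held TGACG on either strand, which is also part of the full element TGACGTCA. CCAAT begins at -65 in Jun, at -36 in Junb and at -244 and -175 in Ier3, and 33.8% of all windows held it. The EGR site GCGNGGGCG, held by 4.7% of windows, was found in Fosb and Fosl2. None of the 8 windows held the CArG box of SRF, the element TGACGTCA or the AP-1 site TGANTCA, which 1.47%, 1.55% and 6.75% of all windows did. All motifs were searched on both strands. Sites further than 250 bases from the start, or with other letters such as tgacatca in the Jun window, were not searched. Egr1 and Fosl1 had no window here. The absence of a match therefore does not show that a gene lacks such a site. These letters describe the windows and say nothing of binding in these cells.

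Of the FOS family, Fos (chromosome 12, 85473890 to 85477273, build mm10) encodes the inducible partner of JUN proteins. It was measured at 175, 186 and 162 CPM on 2-kPa elastic gels and at 168, 96.4 and 188 CPM on 20-kPa elastic gels. On viscoelastic gels it was at 166, 225 and 173 CPM at 2 kPa and at 193, 298 and 203 CPM at 20 kPa. All 3 stiff viscoelastic libraries lay above all 3 stiff elastic ones, although the nearest were at 193 and 188 CPM. They also lay above the 2-kPa elastic libraries, and in the other 3 comparisons the groups overlapped. The log2 fold change of viscoelastic against elastic gels at 20 kPa was 0.62 ± 0.20 (SE, adjusted p = 0.0299 in edgeR's quasi-likelihood test with Benjamini-Hochberg adjustment over all genes). This call rested on the 2 libraries that stood apart. Without elastic replicate 2 the log2 fold change was 0.38 (adjusted p = 0.108), without viscoelastic replicate 2 it was 0.39 (adjusted p = 0.158), and without both 0.14 (adjusted p = 0.449). The DESeq2 Wald test gave 0.60 (adjusted p = 0.0584). The groups compared alone and a replicate block also ended it. Averaged over both stiffnesses the difference was 0.36 ± 0.14 (adjusted p = 0.0558), and it passed without 20-kPa elastic replicate 3 (0.46), 2-kPa viscoelastic replicate 1 (0.40) or 20-kPa viscoelastic replicate 1 (0.42). Stiffness gave 0.30 ± 0.20 on viscoelastic gels (adjusted p = 0.454) and -0.21 ± 0.20 on elastic gels (adjusted p = 0.548), the latter 0.03 without elastic replicate 2. The difference between the stiffness effects was 0.51 ± 0.29 (adjusted p = 0.321).

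Fosb (chromosome 7, 19302696 to 19310051) encodes a FOS family protein of which a shorter and long-lived splice form is also known. Its levels were 17.1, 13.6 and 17.4 CPM on 2-kPa elastic gels and 10.9, 6.29 and 27.4 CPM on 20-kPa elastic gels. They were 10.3, 21.4 and 12.9 CPM on 2-kPa viscoelastic gels and 13.0, 15.1 and 13.9 CPM on 20-kPa viscoelastic gels. The 20-kPa elastic group alone spans the whole range of the other libraries. Neither in the 4 comparisons nor in the interaction or the mean did the difference exceed its SE, and the 95% interval at 20 kPa, from -0.87 to 0.71 on the log2 scale, leaves room for large changes in either direction.

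Fosl1 (chromosome 19, 5447547 to 5455946) encodes FRA-1, a FOS-related protein without the transactivating end of FOS that accompanies migration and sustained ERK activity. It was at 4.27, 3.81 and 6.14 CPM on 20-kPa elastic gels. The other groups had 3.48, 3.16 and 2.72 CPM on 2-kPa elastic gels, 3.01, 2.74 and 2.53 CPM on 2-kPa viscoelastic gels, and 2.97, 2.92 and 2.56 CPM on 20-kPa viscoelastic gels. Every stiff elastic library was above each of the other 9. At 20 kPa, Fosl1 fell by 0.75 on the log2 scale on viscoelastic gels (SE 0.17, adjusted p = 0.00347), a call kept in all 19 alternatives. On elastic gels it was 1.51-fold higher at 20 than at 2 kPa (log2 0.60 ± 0.17, adjusted p = 0.0258), but without elastic 20-kPa replicate 3 the log2 fold change was 0.37. That was the lowest value of the 12 libraries left out in turn, of which 3 ended the call (2-kPa elastic replicates 2 and 3 and 20-kPa elastic replicate 3), with adjusted p up to 0.144. The mean over both stiffnesses was -0.46 ± 0.12 (adjusted p = 0.00681), that at 2 kPa alone was -0.18 ± 0.17 (adjusted p = 0.502), and the test of the difference between these effects gave -0.57 ± 0.24 (adjusted p = 0.172). Of its 2033 bases of exon, 1163 overlap exons of Ccdc85b on the opposite strand, which had 389 to 598 counts against 99 to 249 for Fosl1. The strand setting of the counting is not given in the sources used here, so reads of both genes cannot be told apart and these values are uncertain.

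Fosl2 (chromosome 5, 32135801 to 32157842) encodes FRA-2, which is expressed steadily in mesenchymal cells and acts on collagen genes. It was at 358, 384 and 360 CPM on 2-kPa elastic gels, 412, 418 and 428 CPM on 20-kPa elastic gels, 412, 430 and 412 CPM on 2-kPa viscoelastic gels, and 369, 398 and 365 CPM on 20-kPa viscoelastic gels. The groups formed a pair of levels, with soft elastic and stiff viscoelastic gels at 358 to 398 CPM and stiff elastic and soft viscoelastic gels at 412 to 430 CPM. Viscoelasticity raised Fosl2 1.14-fold at 2 kPa (log2 0.19 ± 0.06, adjusted p = 0.0356), and stiffness raised it 1.14-fold on elastic gels (log2 0.19 ± 0.06, adjusted p = 0.0391). At 20 kPa the viscoelastic effect was -0.15 ± 0.06 (adjusted p = 0.0549), and stiffness on viscoelastic gels gave -0.15 ± 0.06 (adjusted p = 0.185). The difference between the stiffness effects on the 2 gel types was itself past the threshold, at -0.34 ± 0.08 (adjusted p = 0.0215). These are small changes near the threshold. The call at 2 kPa was kept in 12 of 19 alternatives, that of stiffness on elastic gels in 9 of 19, and the interaction in 14 of 18. Leaving out 2-kPa elastic replicate 1 or 3 ended all of these 3 calls. The call at 2 kPa was also lost without 20-kPa elastic replicate 2 or 2-kPa viscoelastic replicate 2 or 3, with log2 values of 0.17 to 0.22 over all 12 libraries left out in turn. That of stiffness was also lost without 2-kPa elastic replicate 2, 20-kPa elastic replicate 2 or 3, or 20-kPa viscoelastic replicate 1 or 3, with values of 0.17 to 0.23. The interaction was also lost without 20-kPa viscoelastic replicate 1 or 3, with values of -0.38 to -0.32 and adjusted p between 0.0147 and 0.0622. At 20 kPa the decrease passed without replicate 2 of either viscoelastic group, at -0.15 and -0.19, and with DESeq2, at -0.17.

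No gene of the JUN family passed the test. Jun (chromosome 4, 95049034 to 95052222) encodes c-JUN, the partner of FOS with the strongest transactivation. It was at 166, 126 and 137 CPM on 2-kPa elastic gels, 139, 102 and 158 CPM on 20-kPa elastic gels, 110, 137 and 113 CPM on 2-kPa viscoelastic gels, and 121, 149 and 116 CPM on 20-kPa viscoelastic gels. All groups overlapped. At 2 kPa the log2 fold change of viscoelastic against elastic gels was -0.25 ± 0.14 (adjusted p = 0.231), and the mean over both stiffnesses was -0.15 ± 0.10 (adjusted p = 0.259). Without the 2 libraries that stood apart, 20-kPa elastic replicate 2 and 20-kPa viscoelastic replicate 2, that mean was -0.30 and passed (adjusted p = 0.0142). The interaction gave 0.21 ± 0.20 (adjusted p = 0.599). The antisense gene Junos shares 232 bases of exon with Jun and had 64 to 146 counts, against 4469 to 6974 for Jun.

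Junb (chromosome 8, 84974484 to 84978718) encodes a JUN protein that often restrains c-JUN. Its levels were 144, 153 and 126 CPM on 2-kPa elastic gels, 162, 109 and 150.3 CPM on 20-kPa elastic gels, 129, 177 and 140.3 CPM on 2-kPa viscoelastic gels, and 153, 199 and 151 CPM on 20-kPa viscoelastic gels. The groups overlapped throughout, and the highest and the lowest library were the same as for Fos. At 20 kPa the difference was 0.26 ± 0.15 (adjusted p = 0.194) and changed sign, to -0.05, without those 2 libraries. The mean over both stiffnesses was 0.17 ± 0.10 (adjusted p = 0.218), and stiffness on viscoelastic gels gave 0.17 ± 0.15 (adjusted p = 0.560). Prdx2 on the opposite strand shares 173 bases of exon with Junb and had 4308 to 6028 counts, so part of the reads in that stretch cannot be assigned.

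Jund (chromosome 8, 70698949 to 70700616) encodes the JUN protein that is present in resting cells. It stayed between 27.7 and 37.7 CPM, with 37.7, 30.7 and 30.1 CPM on 2-kPa elastic gels, 33.3, 27.7 and 32.7 CPM on 20-kPa elastic gels, 32.8, 32.3 and 31.2 CPM on 2-kPa viscoelastic gels, and 31.4, 34.4 and 36.3 CPM on 20-kPa viscoelastic gels. Every pair of groups overlapped. At 20 kPa the viscoelastic effect was 0.12 ± 0.09 (adjusted p = 0.313), and the interaction was 0.16 ± 0.13 (adjusted p = 0.520). The opposite-strand gene Gm11175 covers 877 of its 1668 bases of exon, and counts of Gm11175 are not given here. Since the strand setting of the counting is not known, the values of Jund are uncertain, as those of Fosl1 are.

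The makeup of both families is described next. Summed per kilobase of exon, the FOS family reached 116 ± 6.29 CPM per kb on 2-kPa elastic gels and 112 ± 22.8 on 20-kPa elastic gels, and the JUN family 126 ± 10.8 and 122 ± 22.03 (SD, n = 3). On viscoelastic gels the FOS family was at 127 ± 15.6 and 141 ± 26.6 CPM per kb at 2 and 20 kPa, and the JUN family at 122 ± 15.5 and 134 ± 17.4. Fos made up 56.2% ± 7.87 of FOS family mRNA on 20-kPa elastic gels and 69.3% ± 3.98 on 20-kPa viscoelastic gels, and Fosl2 made up 39.8% ± 8.62 and 28.1% ± 3.66. The shares of Fos, 47.1% to 60.8% against 66.4% to 73.8%, did not overlap, as the levels of 49.9% of all genes did not at 20 kPa. Fosl1 was 2.08% ± 0.264 on 20-kPa elastic gels, against 1.00% to 1.32% as group means elsewhere. Within the JUN family, Jun made up 31.8% to 37.9% on the elastic gels of both stiffnesses and 29.4% to 31.4% on the viscoelastic ones, so that all 6 viscoelastic libraries lay below all 6 elastic ones, although Jun itself did not pass the test. The levels of 12.4% of all genes separated the 6 viscoelastic from the 6 elastic libraries in either direction. These shares are described without a test, and those of 1 family are tied to each other because they sum to the whole. They also rest on the merged exon lengths, such as 2352 bases for Fos and 9680 for Fosl2, and on the uncertain values of Fosl1 and Jund.

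**Figure D3:**
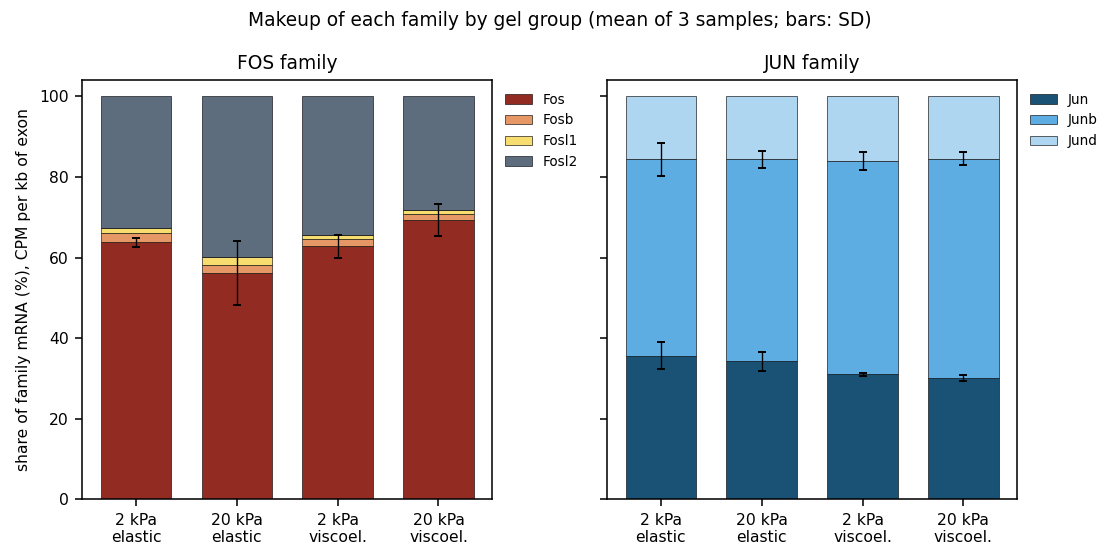
Share of each gene (percent of CPM per kb of exon, vertical axis) in the FOS family (left) and the JUN family (right) in the 4 gel groups, as means of 3 samples with the SD drawn at the upper edge of Fos, Jun and Junb. Fos takes 56.2% to 69.3% and Fosl2 28.1% to 39.8% of the FOS family, while Junb takes 48.8% to 54.4% of the JUN family.

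Egr1 (chromosome 18, 34859823 to 34864984) was at 356, 351 and 308 CPM on 2-kPa elastic gels and at 328, 229 and 374 CPM on 20-kPa elastic gels. On viscoelastic gels it was at 351, 433 and 391 CPM at 2 kPa and at 458, 681 and 452 CPM at 20 kPa. The stiff viscoelastic libraries were above all 9 others, including the soft viscoelastic ones, and the other groups overlapped. In order of their means, the groups ran from 20-kPa elastic (310.2 ± 73.9 CPM) over 2-kPa elastic (338 ± 26.3) and 2-kPa viscoelastic (391 ± 41.0) to 20-kPa viscoelastic gels (531 ± 131, SD, n = 3). The order of the elastic groups turns without 20-kPa elastic replicate 2, where their stiff mean is 351 CPM. At 20 kPa Egr1 rose on viscoelastic gels by 0.77 ± 0.17 on the log2 scale (adjusted p = 0.00289), and the mean over both stiffnesses was 0.49 ± 0.12 (adjusted p = 0.00419). Each of these calls held in every alternative. Without the 2 libraries that stood apart the value at 20 kPa was 0.36 (adjusted p = 0.0288), so the size depends on them but not the call. At 2 kPa the effect was 0.21 ± 0.17 (adjusted p = 0.401), and the test of the difference between 2 and 20 kPa gave 0.56 ± 0.24 (adjusted p = 0.166). Stiffness gave 0.44 ± 0.17 on viscoelastic gels (adjusted p = 0.165), although the groups did not overlap there.

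The EGR relatives and the NAB corepressors, which bind EGR proteins and limit them, were taken from a fixed list of 5 genes, of which 4 were tested. Egr2, whose product is a close relative of EGR1, was the only call, 1.25 ± 0.25 higher on viscoelastic gels at 20 kPa (adjusted p = 0.00167) and 0.84 ± 0.18 higher as the mean of both stiffnesses (adjusted p = 0.00175). Its libraries were at 21.1, 43.0 and 22.5 CPM on 20-kPa viscoelastic gels against 12.7, 8.39 and 15.4 CPM on 20-kPa elastic gels, so the highest and lowest were again both replicates 2. Without both, the value at 20 kPa was 0.62 (adjusted p = 0.0136). Egr3 had -0.52 ± 0.19 at 2 kPa (adjusted p = 0.0654) and 0.23 ± 0.19 at 20 kPa (adjusted p = 0.369). Nab1, at -0.28 ± 0.11 (adjusted p = 0.0565), and Nab2, at 0.01 ± 0.08 (adjusted p = 0.918), did not pass at 20 kPa. Egr4 had 27 counts in all and was not tested.

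Atf3 (chromosome 1, 191170296 to 191218039) was scarce and was lower on viscoelastic gels. On elastic gels it had 4.17, 2.69 and 2.66 CPM at 2 kPa and 2.47, 1.51 and 3.13 CPM at 20 kPa, and on viscoelastic gels 1.43, 2.28 and 1.91 CPM at 2 kPa and 1.57, 1.51 and 1.23 CPM at 20 kPa. The soft groups did not overlap, while 20-kPa elastic replicate 2 fell among the viscoelastic libraries. Atf3 fell by 0.77 on the log2 scale at 2 kPa (SE 0.25, adjusted p = 0.0427) and by 0.72 at 20 kPa (SE 0.27, adjusted p = 0.0497), and the mean over both stiffnesses was -0.74 ± 0.18 (adjusted p = 0.00495). The mean held in all 18 alternatives, whereas the calls at 2 and 20 kPa were kept in 11 and 8 of 19. At 2 kPa the value was -0.52 without 2-kPa elastic replicate 1, and the call was also lost without 2-kPa elastic replicate 2, 20-kPa elastic replicate 1, 2-kPa viscoelastic replicate 1 or 3, or 20-kPa viscoelastic replicate 1 or 3, with values of -0.88 to -0.60. At 20 kPa it was -0.47 without 20-kPa elastic replicate 3. There the call was also lost without 2-kPa elastic replicate 2 or 3, 20-kPa elastic replicate 1, 2-kPa viscoelastic replicate 3 or any 20-kPa viscoelastic library, with values of -0.78 to -0.62. The interaction was smaller than its SE. With stiffness the values were -0.43 ± 0.24 on elastic gels (adjusted p = 0.264) and -0.38 ± 0.27 on viscoelastic gels (adjusted p = 0.484).

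Ier3 (chromosome 17, 35821684 to 35822923) had 108, 117 and 102 CPM on 2-kPa elastic gels, 136, 88.4 and 129 CPM on 20-kPa elastic gels, 111, 138 and 126 CPM on 2-kPa viscoelastic gels, and 124, 165 and 121 CPM on 20-kPa viscoelastic gels. The groups overlapped in each comparison. The viscoelastic effect was 0.20 ± 0.14 at 2 kPa (adjusted p = 0.356), 0.22 ± 0.14 at 20 kPa (adjusted p = 0.257) and 0.21 ± 0.10 as the mean of both (adjusted p = 0.115). The value at 20 kPa became -0.12 without 20-kPa elastic replicate 2 and 20-kPa viscoelastic replicate 2.

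Set against all genes, the 10 genes were called in shares near those of all tested genes. Viscoelastic against elastic gels at 2 kPa gave 2 of 10, where 19.9% of all tested genes were called, with Fosl2 higher (8.77% of all genes) and Atf3 lower (11.1%). At 20 kPa it gave 4 of 10 beside 33.5%, with Fos and Egr1 higher (17.4% of all genes) and Fosl1 and Atf3 lower (16.1%). The mean of both stiffnesses gave 3 of 10 beside 40%, with Egr1 higher (19.6%) and Fosl1 and Atf3 lower (20.4%). For 20 against 2 kPa on elastic gels it was 2 of 10 beside 14%, with Fosl1 and Fosl2 both higher (6.81%). The interaction had 1 of 10 beside 7.56%, with Fosl2 lower (3.12%). For 20 against 2 kPa on viscoelastic gels edgeR called 0 of 10 beside 2.28%, DESeq2 also called 0, and 2 members (Fosl2 and Egr1) had an unadjusted p under 0.05, as 19% of all genes did.

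Groups did not overlap at 2 kPa for 2 of the 10 (36.3% of all genes), at 20 kPa for 4 (49.9%), for stiffness on elastic gels for 2 (35.6%), for stiffness on viscoelastic gels for 2 (22.3%), and for both stiffnesses together for 0 (12.4%). The median log2 fold change of the 10 was 0.02 at 2 kPa, 0.04 at 20 kPa, -0.09 and 0.09 for stiffness on elastic and viscoelastic gels, 0.10 in the interaction and 0.03 in the mean. Over all genes it lay between -0.01 and 0.02. These comparisons share samples, since each group enters more than 1 of them.

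**Figure D4:**
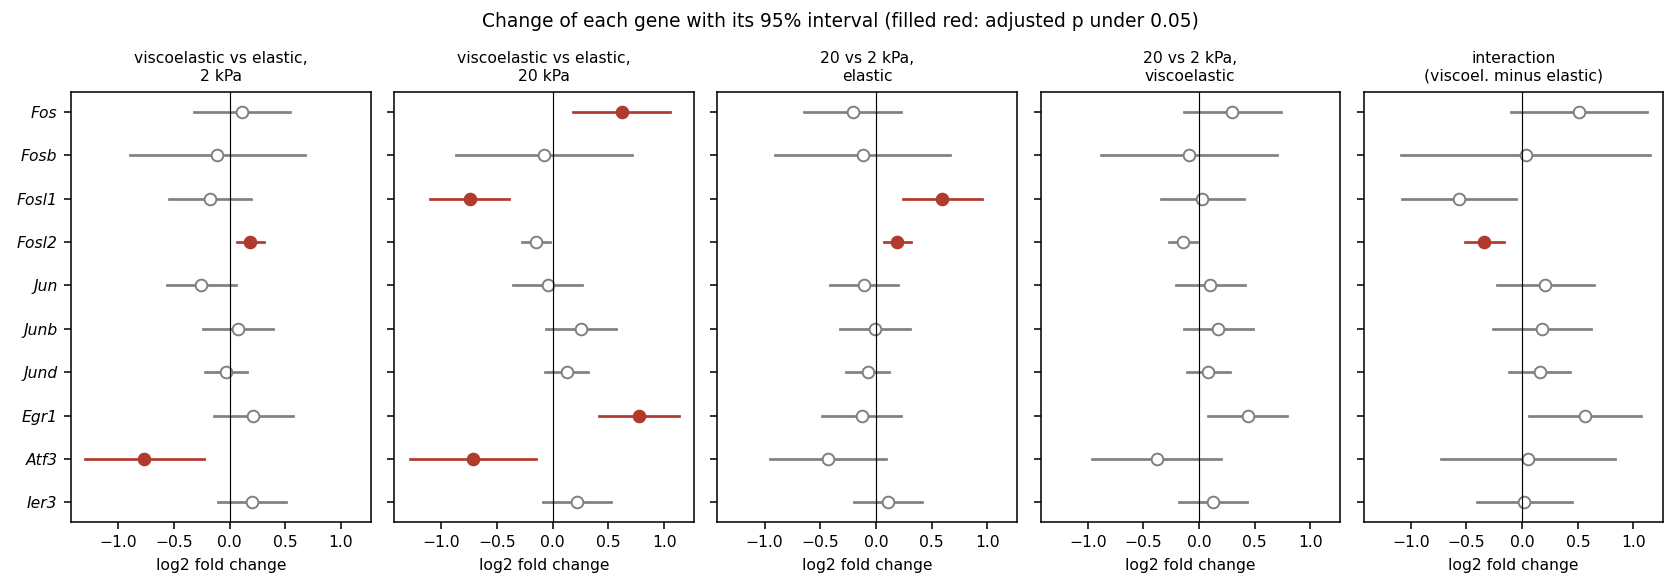
Log2 fold change (horizontal axis) of each gene (rows) with its 95% interval in the 4 comparisons and the interaction, filled red where the adjusted p is under 0.05. At 20 kPa, Fos and Egr1 lie right of 0 and Fosl1 and Atf3 left of it, and the intervals of Fosb are the widest in each panel.

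Of the other immediate early genes, 42 of 43 listed were tested. In counts over this and the following lists, rose, fell, higher and lower refer to called genes only. Of the 42, 15 rose and 3 fell on viscoelastic gels at 2 kPa, with a median of 0.11, and 8 rose and 12 fell at 20 kPa, with a median of -0.04, where 19.9% and 33.5% of all tested genes were called. Called or not, 28 had a positive log2 fold change and 14 a negative one at 2 kPa, and 20 and 22 at 20 kPa. Without the 2 libraries that stood apart, 20-kPa elastic replicate 2 and 20-kPa viscoelastic replicate 2, 2 rose and 14 fell at 20 kPa (median -0.17). Ier2, the gene closest to Fos here, rose by 0.55 ± 0.19 at 20 kPa (adjusted p = 0.0357), a call that ended without both libraries (0.11, adjusted p = 0.593), without either of them or without 20-kPa elastic replicate 1. Arc, a cytoskeletal gene of synaptic plasticity, rose by 1.12 ± 0.22 (adjusted p = 0.0014), and by 0.69 without both (adjusted p = 0.0306). Arc was also the only one of them called for stiffness on viscoelastic gels (1.09 ± 0.22, adjusted p = 0.0232), where 2.28% of all genes were called, a call lost without both libraries (0.83, adjusted p = 0.0518) and in 5 of the 12 fits that left out 1 library. The serum and YAP-responsive matricellular genes Ccn1 and Ccn2 rose at 2 kPa by 0.63 ± 0.15 (adjusted p = 0.00801) and 0.57 ± 0.12 (adjusted p = 0.00400), and Ccn1 also rose at 20 kPa by 0.45 ± 0.15 (adjusted p = 0.0299), which was 0.13 without both libraries (adjusted p = 0.501) and was lost without either or without 20-kPa elastic replicate 1. Also at 2 kPa, the transcription factor gene Klf2 rose by 0.85 ± 0.11 (adjusted p = 0.00019) and Gadd45g, a growth arrest gene, by 0.74 ± 0.11 (adjusted p = 0.000379). Ptgs2, which encodes the inducible cyclooxygenase, fell at 20 kPa by 0.88 (SE 0.18, adjusted p = 0.00236), and the kinase gene Sgk1 fell by 0.76 (SE 0.09, adjusted p = 0.000108). At 2 kPa Sgk1 was called higher (0.29), a call lost in 4 of the 12 fits that left out 1 library. Its interaction, -1.05, was also called. Nr4a1 (0.56 ± 0.22, adjusted p = 0.0646), Dusp1 (-0.13 ± 0.16, adjusted p = 0.560) and Btg2 (0.17 ± 0.16, adjusted p = 0.428) did not pass at 20 kPa. Myc rose at 2 kPa by 0.28 ± 0.07 (adjusted p = 0.0131), a call lost without 2-kPa elastic replicate 1 (adjusted p = 0.0684). On elastic gels 8 rose and 1 fell with stiffness (median 0.20), beside 14% of all genes called. These counts were 14 and 1 without 20-kPa elastic replicate 2 and 6 and 2 without replicate 3, 16 and 1 without both libraries that stood apart. The rise was led by Klf4 at 0.77 ± 0.10 (adjusted p = 0.000259). In the interaction 2 were higher and 5 lower (median -0.23), beside 7.56% of all genes called, and in the mean of both stiffnesses 11 were higher and 8 lower, beside 40%.

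AP-1 target genes, a list of 15 with 14 tested, had their highest summed level on 20-kPa elastic gels. It was 3218, 3552 and 4943 CPM, above the 2379 to 2779 CPM of all 9 other libraries. With stiffness on elastic gels 9 rose and 1 fell, with a median of 0.46 beside -0.01 for all genes, where 14% of all genes were called. On viscoelastic gels none was called, beside 2.28% of all genes. The rise on elastic gels moved with replicate 3, the highest library, without which 3 rose and 2 fell (median 0.29). The protease inhibitor gene Timp1 rose by 0.54 ± 0.09 (adjusted p = 0.00184), and Il6, which encodes a cytokine, rose by 1.05 ± 0.21 (adjusted p = 0.00496), whereas the collagenase gene Mmp13 fell by 1.11 (SE 0.28, adjusted p = 0.0175), a call lost without 2-kPa elastic replicate 1 or 2 or 20-kPa elastic replicate 2 (adjusted p up to 0.0756). Against elastic gels at 20 kPa, 1 rose on viscoelastic gels (Hmox1, a heme-degrading enzyme gene) and 7 fell, with a median of -0.47, beside 33.5% of all genes called. Without 20-kPa elastic replicate 3, 1 rose and 5 fell (median -0.23). Among those that fell were Mmp9 at -1.19 ± 0.40 (adjusted p = 0.0331) and Cd44, which encodes a hyaluronan receptor, at -0.80 ± 0.13 (adjusted p = 0.00054). The call of Mmp9 was lost without 20-kPa elastic replicate 3 or any 20-kPa viscoelastic library, with values of -1.47 to -0.48 over all libraries left out in turn, and that of Hmox1 (0.43, adjusted p = 0.0240) without 20-kPa elastic replicate 1 or 2 or 20-kPa viscoelastic replicate 2. At 2 kPa 2 rose and 5 fell, with a median of -0.17, beside 19.9% of all genes called. Il6 rose by 1.38 ± 0.21 (adjusted p = 0.000616) and Mmp9 fell by 2.16 (SE 0.38, adjusted p = 0.00144). The interaction had 1 higher and 4 lower (7.56% of all genes called), and the mean of both stiffnesses 2 higher and 8 lower (40%).

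**Figure D5:**
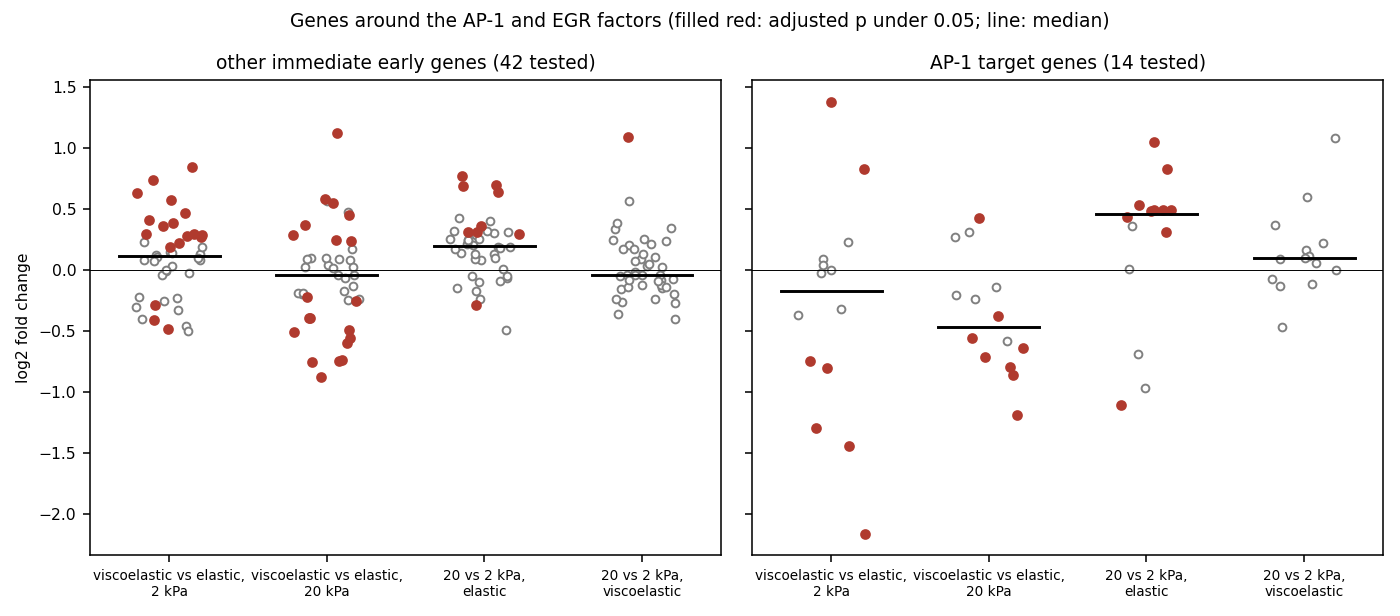
Log2 fold change (vertical axis) of 42 other immediate early genes (left) and 14 AP-1 target genes (right) in 4 comparisons, 1 point per gene with sideways jitter, filled red where the adjusted p is under 0.05, with a line at the median. AP-1 target genes have a median of 0.46 for stiffness on elastic gels and of -0.47 for viscoelastic against elastic gels at 20 kPa.

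Of 20 regulators of immediate early transcription, 4 fell on viscoelastic gels at 2 kPa, 7 fell and 2 rose at 20 kPa, and 7 fell and 1 rose in the mean of both, with medians of -0.04, -0.11 and -0.05, beside 19.9%, 33.5% and 40% of all genes called. At 20 kPa 3 fell and 1 rose without the 2 libraries that stood apart. Elk3, an SRF partner that can repress, fell by 0.26 at 2 kPa (SE 0.07, adjusted p = 0.0172, lost in 4 of the 12 fits without 1 library) and by 0.34 at 20 kPa (SE 0.07, adjusted p = 0.00234), and Mrtfa, an actin-controlled coactivator of SRF, fell by 0.28 at 20 kPa (SE 0.06, adjusted p = 0.00331), with -0.23 without both libraries (adjusted p = 0.0520). Srf, which is on both lists, was at -0.04 ± 0.08 at 20 kPa (adjusted p = 0.704), and Mrtfb at -0.18 ± 0.07 (adjusted p = 0.0553). With stiffness 1 rose and 1 fell on elastic gels and none was called on viscoelastic gels or for the interaction, beside 14%, 2.28% and 7.56% of all genes. Of 9 ERK feedback genes (median -0.03 at either stiffness), Dusp4 and Spred1 fell at 2 kPa, and Dusp4, Spred1 and Spred3 fell and Spry2 rose at 20 kPa, beside 19.9% and 33.5% of all genes called. Dusp4, a nuclear ERK phosphatase gene, fell by 0.71 at 20 kPa (SE 0.17, adjusted p = 0.00503), while Spry2 rose by 0.40 ± 0.12 (adjusted p = 0.0181), which was 0.09 without both libraries that stood apart (adjusted p = 0.385) and was lost without either. Dusp6 was at 0.05 ± 0.18 (adjusted p = 0.861). The same 3 fell and Spry2 rose in the mean of both stiffnesses, Dusp4 rose with stiffness on elastic gels (0.52, adjusted p = 0.0478, lost in 8 of the 12 fits without 1 library), and Spred3 fell with stiffness on viscoelastic gels and in the interaction.

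Of 17 other AP-1 and related bZIP subunits, 15 were tested. On viscoelastic gels 5 rose and 2 fell at 2 kPa, and 4 rose and 3 fell at 20 kPa, with medians of 0.07 and 0.03, beside 19.9% and 33.5% of all genes called. Atf5 and Atf4, factors of the amino acid stress response, rose by 0.84 ± 0.07 (adjusted p = 8.32e-06) and 0.65 ± 0.09 (adjusted p = 0.000193) at 2 kPa. With stiffness on elastic gels 3 rose and 2 fell, on viscoelastic gels none was called, the interaction had 2 higher and 1 lower, and the mean of both stiffnesses 5 higher and 3 lower, where the shares of all genes were 14%, 2.28%, 7.56% and 40%. Heat shock chaperones, 10 genes in all with medians of 0.10 at 2 kPa and 0.07 at 20 kPa, had 1 higher at 2 kPa, 3 higher and 2 lower at 20 kPa, 3 higher with stiffness on elastic gels, 1 higher on viscoelastic gels, 1 lower in the interaction, and 5 higher and 1 lower in the mean of both stiffnesses, to be read against the same shares of all genes. Of the 9 fibroblast markers 4 rose and 1 fell at 20 kPa and none was called at 2 kPa. Of the 3 tested chondrocyte markers Acan fell at 2 kPa and Comp rose at 20 kPa, again beside 19.9% and 33.5% of all genes at 2 and 20 kPa. Without the 2 libraries that stood apart, the calls at 20 kPa were 4 higher and 1 lower for the bZIP subunits, 2 and 0 for the chaperones and 2 and 1 for the fibroblast markers.

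Over the 12 samples, the genes whose log2 CPM followed a member most closely are given for 9 of the members. They were sought among the tested genes other than the members themselves. Between members, Junb and Ier3 had an r of 0.946 and Fos and Egr1 of 0.944. For Fos they were Ier2 (Pearson's r = 0.969) and Zfp36 (0.947), for Junb Zfp36 (0.951) and Ier2 (0.925), for Egr1 Egr2 (0.976) and Ier2 (0.968), and for Ier3 Zfp36 (0.929) and Ier2 (0.912). Ier2 was thus among the 3 closest for 4 members and Zfp36 for 3. Fosl1 was closest to Eogt (0.969), Diaph1 (0.964) and Ereg (0.962), Fosl2 to Siglecg (0.938), Jun to Phlda1 (0.931), Atf3 to Gdf5 (0.966) and Jund to Pp2d1 (0.865). These are descriptions over samples that share groups and libraries, chosen as the highest over all tested genes outside the members.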

How the data were processed

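RNA from 12 samples, 3 in each of 4 gel groups, was analysed. Per the labels and the study's methods, the authors used Trimmomatic for trimming, STAR for alignment to mm10 and featureCounts for counting, and deposited raw counts per gene without normalization. The strand setting and annotation release are not given in the sources used here. Genes were matched by symbol to GENCODE models of mm10 for position and exon length, the latter merged over all transcripts of a gene. The test was the quasi-likelihood F-test of edgeR (version 4.0.16, run under R 4.3.3), after filterByExpr (minimum count 10, minimum total 15) and TMM scaling, with all 12 samples in 1 fit and a term for each group. Genes with a Benjamini-Hochberg adjusted p under 0.05 were called. The code was tested on simulated data. DESeq2 1.42.0 was an alternative. Log2 CPM had a prior count of 2.

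The members and the gene lists were chosen with earlier results of these data known. Members were all named. Other list genes could be named when called with one of the 4 largest changes of their list, when at the end of its range, or when on a short list of names set with the design. Replicates of a group differed by 11.2 to 55.5 times the counting variance (mean chi-squared over genes), so no library was a copy. Log2 fold changes of members are printed where called or at least 1 SE. Values of some list genes, and of the gene closest to Fosb, are not reported here.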

Additional observations from a re-analysis of the deposited data

Results flagged for a closer look

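Fosl2 changed differently from 2 to 20 kPa on the 2 gel types by the test of that difference, -0.34 on the log2 scale (adjusted p = 0.0215 in edgeR's quasi-likelihood test), which was kept in 14 of 18 alternatives. On elastic gels the effect of 20 against 2 kPa was 0.19 ± 0.06 (adjusted p = 0.0391), a call kept in 9 of 19 alternatives, and on viscoelastic gels it was -0.15 ± 0.06 (adjusted p = 0.185), which did not pass. The libraries of the 2 stiffnesses did not overlap on either gel type, as was so for 35.6% of all genes on elastic and 22.3% on viscoelastic gels.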

How the results depend on the processing

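Of the 12 calls for these genes, 5 held in every alternative: Egr1 and Fosl1 at 20 kPa, and Egr1, Fosl1 and Atf3 as the mean of both stiffnesses. No alternative addressed the overlap of Fosl1 with Ccdc85b or of Jund with Gm11175. Leaving out both 20-kPa libraries that stood apart, chosen after seeing the data, changed the sign of Junb (-0.048) and Ier3 (-0.12) at 20 kPa, of Fos for stiffness on elastic gels (0.039) and of Jun in the interaction (-0.077), which are 4 of the 36 values printed, and of 17 of all 60 values. In at least 1 alternative 26 of the 60 changed sign. Without both libraries 1 member was called for stiffness on elastic gels, and 2728 genes at 20 kPa and 117 for stiffness on viscoelastic gels. With 1 library left out at a time, Fos for stiffness on elastic gels ran from -0.40 to 0.031. The members called then numbered 0 to 2 at 2 kPa, 3 to 5 at 20 kPa, 0 to 2 for stiffness on elastic gels and 0 to 1 in the interaction. The genes called ran from 1545 to 3085 at 2 kPa, 3177 to 5381 at 20 kPa, 1063 to 2369 for stiffness on elastic gels, 9 to 351 on viscoelastic gels and 670 to 1182 in the interaction. Testing every gene with a count gave 1 member at 2 kPa, 1 for stiffness on elastic and 1 on viscoelastic gels, 2 in the interaction and 5 in the mean, with 653 genes for stiffness on viscoelastic gels. Fitting the compared groups alone gave 1 member at 2 kPa, 2 at 20 kPa and 38 genes for stiffness on viscoelastic gels. DESeq2 called 760 genes for stiffness on viscoelastic gels, against 331. At an adjusted p under 0.01, members called were 0 at 2 kPa, 2 at 20 kPa, 0 for stiffness on elastic gels and 0 in the interaction, and genes called 1352, 2733, 855, 9 (viscoelastic), 400 (interaction) and 3730 (mean). The cause of these changes was not tested.

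A replicate block gave 1 member at 2 kPa, 2 at 20 kPa and 1 for stiffness on elastic gels, and 154 genes on viscoelastic gels. Libraries with the same number did not in general deviate together (18 pairs, r from -0.20 to 0.31, mean -0.02), so the numbers are not taken as a pairing. The 2 pairs above 0.1 both joined the viscoelastic groups, with 0.18 for replicates 1 and 0.31 for replicates 2. A source shared by these libraries was not tested. Scaling by total counts alone moved the median of all genes by at most 0.05, and the genes called higher and lower from 1275 and 1617 to 1675 and 1258 at 2 kPa, from 2527 and 2339 to 2937 and 1901 at 20 kPa, and from 2846 and 2971 to 3538 and 2309 in the mean. Depth limits Atf3 and Fosl1 most, with the fewest counts.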
